A study of Mus musculus with 28 samples.

Results

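The 8 genes followed here belong to MHC class I antigen presentation and were measured in mouse embryonic stem cells (mESCs): Tap1, Tap2, Tapbp, H2-K1, H2-D1, B2m, Nlrc5, and Irf1. They were picked by symbol as a known pathway, with earlier results of these data known, and all 8 were found by gene ID among the 15384 genes with a value per library. Cells of the E14 line, grown on gelatin with serum and leukaemia inhibitory factor (LIF, 10 ng/ml), were transfected with lentiviral vectors for short hairpin RNAs. The control group received a scramble hairpin, and the Ssrp1 knock-down (KD) group a pair of hairpins against Ssrp1. In both groups puromycin (2 µg/ml) was added 48 h after transfection, and RNA was taken after a further 24 h of selection. Each group had 4 RNA-seq libraries with ERCC spike-in RNA. Unperturbed mESCs gave 2 libraries of chromatin-bound RNA and 1 peak list each for SSRP1 and SUPT16, the subunits of the histone chaperone FACT. The cells are thus a transiently transfected and selected population. Where no label ties the libraries to separate transfections, p-values measure only the spread between these libraries.

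MHC class I molecules show fragments of the proteins made in a cell to cytotoxic T cells. Peptides cut by the proteasome are carried into the endoplasmic reticulum by the transporter TAP, made of TAP1 and TAP2, and tapasin (Tapbp) holds a heavy chain at TAP until a peptide is bound. The heavy chains H2-K1 and H2-D1 reach the surface with the light chain beta-2-microglobulin (B2m). NLRC5 is the transactivator of class I genes, which it reaches through proteins on the promoter, and IRF1 is a transcription factor induced by interferon. Embryonic stem cells are known for low surface levels of class I molecules.

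In brief, the pathway did not move as a block after the knock-down. Transcripts of the transporter genes Tap1 and Tap2 and of the transactivator Nlrc5 fell 5.77-fold, 6.69-fold, and 8.21-fold. The heavy chains H2-K1 and H2-D1 rose 2.06-fold and 2.27-fold. These are ratios of means over 4 libraries a group, of values scaled to library size. Irf1 and Tapbp had higher values in every KD library, at 2.00 and 1.82 times the control mean, but stayed under the fold threshold. B2m was at 1.11 times the control mean, within the spread of its libraries. Scaled to spike-ins, Irf1, Tapbp, and B2m were called higher as well. Scaled to the total of the listed genes, where 343 of 15384 genes were called higher, H2-K1 and H2-D1 were no longer called.

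The promoters of the light chain and of both heavy chains carry the same spaced pair of short motifs, and their sequences are shown for that reason. The windows are the 250 bases before the annotated start, taken from RefSeq promoters of GRCm38.p6 (the assembly that mm10 names). Of the 8 genes 6 were matched by gene ID and annotated start. Tap2 and Nlrc5 had no such match and are not shown. The letters searched on both strands were TGACG (the core of a cyclic AMP response element), CCAAT with its reverse ATTGG (the NF-Y box), GAAA followed after 2 bases by a second GAAA, the shorter GAANNGAAA (both elements of interferon regulatory factors), TTCNNNGAA (a STAT element), and a kappaB consensus, named here without its letters. Capitals mark each match, and the kappaB matches of H2-K1 and H2-D1 overlap one another and read on both strands.
B2m: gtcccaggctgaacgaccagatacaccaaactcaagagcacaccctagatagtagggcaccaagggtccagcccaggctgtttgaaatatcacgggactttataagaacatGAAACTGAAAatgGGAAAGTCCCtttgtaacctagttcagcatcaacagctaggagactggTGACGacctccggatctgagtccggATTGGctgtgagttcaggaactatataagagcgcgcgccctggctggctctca
H2-K1: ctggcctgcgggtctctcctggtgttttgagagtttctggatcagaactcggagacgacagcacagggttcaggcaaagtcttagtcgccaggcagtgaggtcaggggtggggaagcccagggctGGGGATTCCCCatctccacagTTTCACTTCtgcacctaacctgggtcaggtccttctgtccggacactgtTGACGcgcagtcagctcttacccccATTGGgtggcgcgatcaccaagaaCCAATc
H2-D1: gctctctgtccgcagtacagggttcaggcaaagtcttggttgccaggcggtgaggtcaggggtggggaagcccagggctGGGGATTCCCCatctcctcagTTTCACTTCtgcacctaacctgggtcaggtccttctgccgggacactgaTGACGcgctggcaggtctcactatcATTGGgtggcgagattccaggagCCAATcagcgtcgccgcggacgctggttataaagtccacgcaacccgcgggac
The B2m window is chr2:122147437-122147686 on the plus strand, the H2-K1 window chr17:34000334-34000583 on the minus strand, and the H2-D1 window chr17:35262844-35263093 on the plus strand. In each of them TGACG was followed after 20 bases by ATTGG. That spacing was looked for after the 3 windows had been read. It was found in 30 of 32851 promoters (0.0913%), which belong to 26 genes, H2-M3 among them. The stretch from the first to the last base of the pair is set out again for the 3 genes, with only the pair in capitals.
B2m core: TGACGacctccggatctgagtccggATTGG
H2-K1 core: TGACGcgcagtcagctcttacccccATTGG
H2-D1 core: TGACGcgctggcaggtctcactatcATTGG
The cores lie at chr2:122147609-122147638, chr17:34000359-34000388, and chr17:35262993-35263022. They begin 78, 55, and 101 bases before the start of B2m, H2-K1, and H2-D1. The cores of H2-K1 and H2-D1 share 23 of 30 bases, and that of B2m shares 13 with H2-K1 and 12 with H2-D1. Over the whole windows, shifted by 46 bases and with no gaps, H2-K1 and H2-D1 were identical at 169 of 204 bases (82.8%).

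A kappaB match was found upstream of B2m, H2-K1, H2-D1, and Irf1, and in 3.90% of all promoters. GAANNGAAA was found in H2-K1 and H2-D1 (6.31% of all promoters), the longer element in B2m (2.98%), and TTCNNNGAA in Irf1 (7.02%). The more frequent CCAAT and TGACG occurred in 33.8% and 17.8% of all promoters. A match describes letters only, and binding of a factor was not measured at these motifs. The Tap1 and Irf1 windows are shown beside them, the first for the gene with the highest control level and the second because peaks of both FACT subunits lie on it.
Tap1: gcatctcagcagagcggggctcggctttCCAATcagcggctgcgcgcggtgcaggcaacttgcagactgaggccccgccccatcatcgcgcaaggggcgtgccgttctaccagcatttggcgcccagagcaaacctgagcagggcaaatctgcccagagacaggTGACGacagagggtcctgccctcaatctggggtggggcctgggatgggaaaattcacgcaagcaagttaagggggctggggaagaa
Irf1: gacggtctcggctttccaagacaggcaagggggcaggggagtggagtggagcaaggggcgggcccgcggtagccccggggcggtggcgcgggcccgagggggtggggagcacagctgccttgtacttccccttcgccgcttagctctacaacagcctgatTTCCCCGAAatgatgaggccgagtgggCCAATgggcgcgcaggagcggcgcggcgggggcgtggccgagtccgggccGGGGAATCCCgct
The Tap1 window (chr17:34187306-34187555, plus strand) holds CCAAT and TGACG, without the spacing above. It also separates Tap1 from Psmb9, an immunoproteasome subunit gene that is read in the other direction from a start 226 bp away. The Irf1 window (chr11:53769764-53770013, plus strand) was 71.2% G or C, against a median of 52.4% over all promoters, and the other 5 windows lay between 50.8% and 62.4%.

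The reads behind the values were recovered as whole numbers. They came to 4602278 to 6680919 per control library and 9433193 to 19856032 per KD library, so that KD values rest on more reads. The library-size values are normalised read counts that sum to between 825584 and 909417 in control libraries and between 1137293 and 1182584 in KD libraries. Ssrp1 itself had 223 to 261 in control libraries and 24.1 to 28.9 in KD libraries, a fall of 3.15 on the log2 scale (limma, adjusted p = 1.18e-22). Supt16 was at 296 to 346 and at 481 to 529, a rise of 0.66 on the log2 scale (limma, adjusted p = 5.24e-11). These are transcripts, whereas the paper reports from mass spectrometry that SUPT16 was depleted along with SSRP1. A gene was called if its absolute log2 fold change was above 1 and its adjusted p below 0.01 (limma over all 15384 genes, Benjamini-Hochberg). By this rule 5 of the 8 genes were called, 2 higher and 3 lower in KD. The background was high, with 28.6% of all genes called, 8.07% higher and 20.6% lower.

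**Figure D1:**
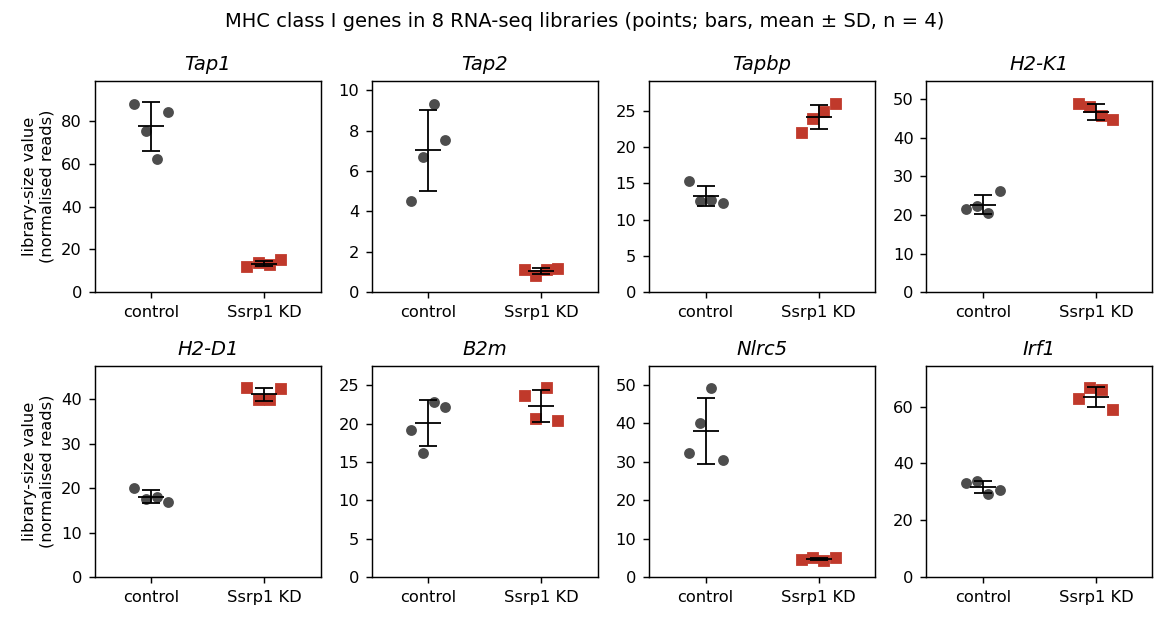
Library-size values (normalised reads, axes from 0) of the 8 genes in each control (circles) and Ssrp1 KD (squares) library, with mean ± SD (n = 4). The KD libraries lie below all controls for Tap1, Tap2, and Nlrc5 and above them for Tapbp, H2-K1, H2-D1, and Irf1, while the groups overlap for B2m.

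The transporter genes lie close together in the MHC of chromosome 17. Tap1 (chr17:34187556-34197225, plus strand, 11 exons) had library-size values of 88.2, 75.2, 62.4, and 84.3 in the control libraries, here and below in the order of replicates 1 to 4, and of 11.9, 13.9, 12.95, and 15.0 in the KD libraries. The highest KD library was thus far under the lowest control library. The mean went from 77.5 ± 11.4 to 13.4 ± 1.34 (SD, n = 4), and Tap1 fell by 2.48 ± 0.10 (SE) on the log2 scale (limma, adjusted p = 5.54e-18). These values rest on 348 to 648 reads per control library and 96 to 259 per KD library. Tap2 (chr17:34204479-34216321, plus strand, 12 exons), the partner of TAP1 in the transporter, had 4.49, 6.71, 9.33, and 7.52 in control libraries and 1.11, 0.821, 1.10, and 1.16 in KD libraries. The groups did not overlap, and among the controls replicate 1 was the lowest and replicate 3 the highest. Tap2 fell by 2.24 ± 0.24 on the log2(value + 0.5) scale (limma, adjusted p = 1.87e-09). With only 9 to 20 reads per KD library, its fold is the least certain of the 8, and the pseudocount makes it smaller. The edgeR quasi-likelihood test on the recovered reads gave -2.73 (adjusted p = 2.28e-10).

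Tapbp encodes tapasin, the bridge between TAP and the heavy chain, and lies on the same chromosome (chr17:33919478-33929290, plus strand, 8 exons). Its values were 15.4, 12.6, 12.7, and 12.3 in control libraries and 21.997, 23.8, 24.8, and 26.0 in KD libraries. All KD libraries were above all controls, in the opposite direction to the TAP subunits. Tapbp differed by 0.84 ± 0.11 on the log2 scale (limma, adjusted p = 5.18e-08), which is under the fold threshold. An antisense gene, Gm19412, overlaps the span of Tapbp, and overlap of their exons was not measured. The paper names a directional library kit, but the strand setting of the counting is not stated. Reads from any shared exons therefore may not be told apart.

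The heavy chain genes rose together. H2-K1 (chr17:33996012-34000333, minus strand, 8 exons) had 21.5, 22.2, 20.6, and 26.3 in control libraries and 48.8, 48.0, 45.5, and 44.5 in KD libraries. H2-D1 (chr17:35263094-35267497, plus strand, 8 exons) had 20.1, 17.6, 17.9, and 16.8 in control libraries and 42.5, 39.8, 39.9, and 42.4 in KD libraries. For both genes every KD library was well above every control library. On the log2 scale H2-K1 rose by 1.03 ± 0.09 (limma, adjusted p = 1.54e-11) and H2-D1 by 1.16 ± 0.09 (limma, adjusted p = 1.75e-12). The call of H2-K1 is close to the threshold and was lost without control replicate 3, at 0.99. Class I genes resemble one another, and 9.63% of the 50-base windows of H2-K1 transcripts and 12.8% of those of H2-D1 also occur in transcripts of other genes (GENCODE M21), most often H2-Q10 and H2-Q1. How such reads were counted is not stated, so part of each value is uncertain. For the 6 other genes this share was between 0 and 2.87%.

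B2m, the light chain (chr2:122147687-122153082, plus strand, 4 exons), lies outside the MHC, and its span overlaps that of the antisense gene Patl2. Its values were 19.2, 16.2, 22.8, and 22.2 in control libraries and 23.6, 20.6, 24.6, and 20.4 in KD libraries. The groups overlapped. The log2 difference was 0.16 ± 0.11 (limma, adjusted p = 0.192), and without each library in turn it lay between 0.06 and 0.22.

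Of the regulators Nlrc5 fell, and Irf1 was higher in all KD libraries without passing the fold threshold. Nlrc5 (chr8:94472763-94527272, plus strand, 49 exons) had 32.4, 40.1, 49.2, and 30.4 in control libraries and 4.45, 4.87, 4.27, and 4.93 in KD libraries. Every KD library was far under every control library, and the control libraries varied most after Tap2, with a coefficient of variation of 22.5%. Nlrc5 fell by 2.88 ± 0.14 on the log2 scale (limma, adjusted p = 1.42e-16), the largest change of the 8 with library-size scaling, and was the 231st lowest of 15384 log2 fold changes. Irf1 (chr11:53770014-53778374, plus strand, 12 exons) had 33.2, 33.7, 29.2, and 30.5 in control libraries and 62.5, 66.4, 66.0, and 58.8 in KD libraries. All KD libraries were above all controls. The log2 difference of 0.99 ± 0.07 (limma, adjusted p = 2.05e-12) lay just under the fold threshold, and it passed without control replicate 1 (1.01), control replicate 2 (1.02), or KD replicate 4 (1.03).

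The groups did not overlap for 7 of the 8 genes, which is close to the background of 73.3% of all genes without overlap. Each of the 7 had a two-sided exact permutation p of 0.0286, the smallest that 4 against 4 libraries can give, and B2m had p = 0.314 (exact permutation test). Read against that background, separated groups are not particular to these genes. The median log2 fold change was 0.50 over the 8 genes, a middle between changes of both signs, against -0.03 over all genes tested.

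The scaling of the libraries matters for the direction of small changes. Under the authors' scaling to spike-ins the median of all genes was shifted to 0.95 on the log2 scale, 55.1% of all genes were called (48.1% higher and 7.03% lower), and all 8 genes were called, 5 higher and 3 lower. Relative to that median, Tap1, Tap2, and Nlrc5 were at -2.42, -2.36, and -2.86, Irf1, H2-K1, and H2-D1 at 1.05, 1.09, and 1.22, Tapbp at 0.89, and B2m at 0.20. On the spike-in scale itself Tap1 had 59.3, 45.0, 41.9, and 75.4 in control libraries and 10.9, 25.7, 20.9, and 22.6 in KD libraries. KD replicate 1 was the lowest KD library for all 8 genes on this scale, which it was not with library-size scaling. A further scaling, to the total reads of the listed genes, was chosen after seeing that the sums of the values differ between the groups. It moved the median of all genes to -0.45, and 5044 of all 15384 genes were called, 343 higher and 4701 lower. Tap1, Tap2, and Nlrc5 were then called at -2.90, -2.59, and -3.29, whereas H2-K1 and H2-D1 were at 0.61 and 0.74 and no longer called, and the difference of B2m changed sign (-0.26). With quantile normalisation 3174 genes were called, 1518 higher and 1656 lower, and Tap2 was at -1.21, H2-K1 at 0.96, and Tapbp at 1.10. The fall of Tap1, Tap2, and Nlrc5 and the positive sign of H2-K1, H2-D1, Tapbp, and Irf1 held under these 3 scalings, under TMM, and under the size factors of DESeq2.

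**Figure D2:**
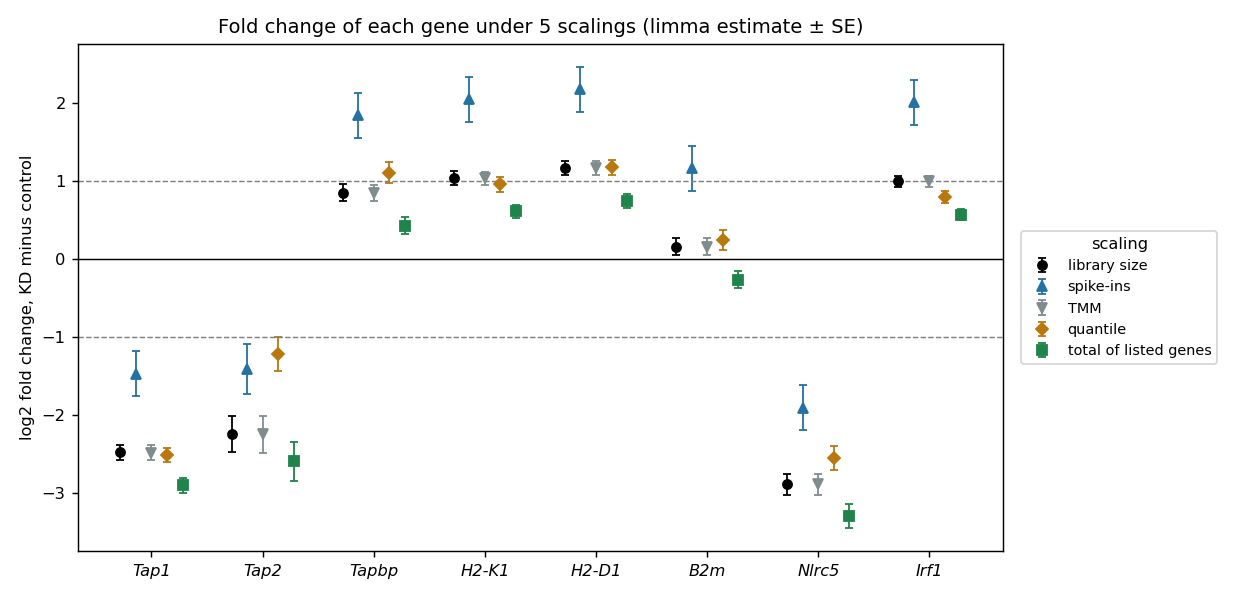
Log2 fold change (KD minus control, estimate ± SE from limma, 4 against 4 libraries) of each gene under 5 scalings, with dashed lines at the fold threshold of 1. Tap1, Tap2, and Nlrc5 stay below -1 throughout, while B2m lies at 0.16 with library-size scaling, at 1.16 with spike-ins, and at -0.26 with the total of the listed genes.

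Ratios between genes within a library do not change where a scaling divides all genes of the library by 1 factor, as library-size and spike-in scaling do. They do change with quantile normalisation, where the log2 fold changes of Tap1 and Tap2 were -2.51 and -1.21. These ratios were chosen after the values had been seen and carry no test. With values per kb of exon, the sum of H2-K1 and H2-D1 was 0.778, 0.837, 0.918, and 0.812 times the sum of Tap1 and Tap2 in the control libraries. In the KD libraries it was 12.1, 10.3, 10.5, and 9.27 times that sum. Heavy chain transcripts were thus about level with transporter transcripts in control cells and 10.5 ± 1.18 (SD, n = 4) times as high after the knock-down. The ratio of Tapbp to Tap1 went from 0.185 ± 0.03 to 1.93 ± 0.10, and that of Irf1 to Nlrc5 from 1.79 ± 0.41 to 28.5 ± 2.99. Heavy chains over B2m went from 1.05 ± 0.17 to 2.02 ± 0.19. Between genes that moved alike the ratios overlapped between the groups, with Tap1 over Tap2 at 5.65 to 16.6 in control and 9.00 to 14.3 in KD libraries, and H2-K1 over H2-D1 at 1.13 to 1.65 and 1.11 to 1.27.

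**Figure D3:**
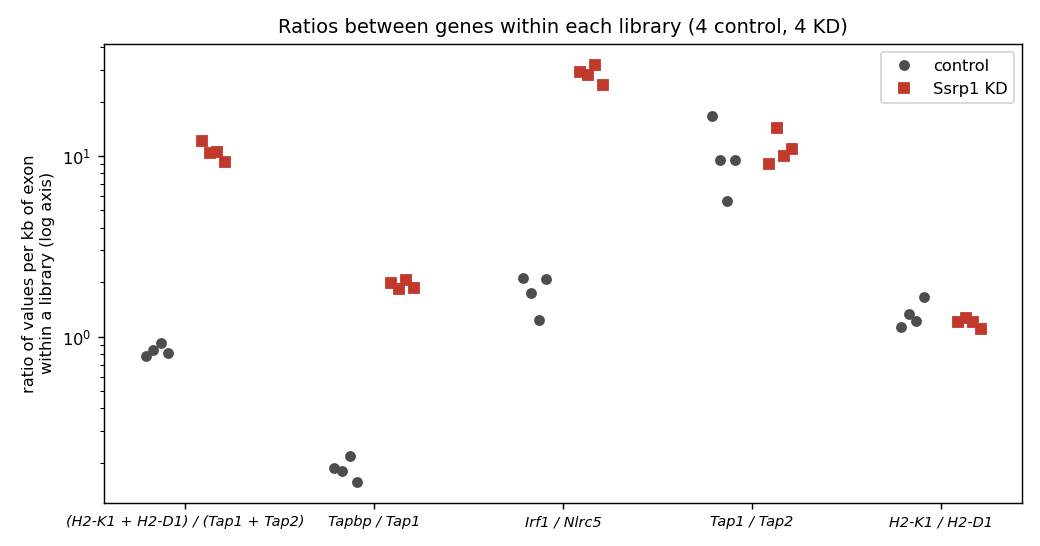
Ratios of values per kb of exon within each library (log axis) for 4 control (circles) and 4 KD (squares) libraries. The ratio of the heavy chains to the TAP subunits lies at 0.778 to 0.918 in control and 9.27 to 12.1 in KD libraries, whereas Tap1 over Tap2 and H2-K1 over H2-D1 overlap.

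Levels per kb of exon give the order of the 8 transcripts in control cells. Tap1 (26.3 ± 3.88 library-size units per kb, SD, n = 4) and B2m (23.4 ± 3.54) were the highest and their ranges overlapped. H2-K1 followed at 13.8 ± 1.51, then H2-D1 at 10.4 ± 0.82 and Irf1 at 9.43 ± 0.64, which overlapped. Nlrc5 (5.47 ± 1.23) and Tapbp (4.82 ± 0.52) overlapped, and Tap2 was the lowest at 2.82 ± 0.81. Within a control library the level of Tap1 was 10.3 ± 4.56 times that of its partner Tap2. In KD cells H2-K1 (28.4 ± 1.22), B2m (26.0 ± 2.46), and H2-D1 (23.7 ± 0.87) led, and neighbours among them overlapped. Irf1 (18.9 ± 1.06), Tapbp (8.78 ± 0.61), Tap1 (4.55 ± 0.46), Nlrc5 (0.667 ± 0.05), and Tap2 (0.421 ± 0.06) followed with no overlap between neighbours. Tap1 went from the first to the sixth place, and from the 82.2 to the 38.2 percentile of all genes per kb. H2-K1 went from the 66.1 to the 78.2 percentile, and Nlrc5 from the 37.7 to the 8.52 percentile. With the RefSeq exon length of H2-K1 (2454 bp in place of 1646 bp) its control level was 9.23, just under that of Irf1.

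For each gene the most similar profile over the 8 libraries was looked up among all genes, by Pearson correlation of log2(value + 0.5), as a description with no p. Since the libraries form 2 groups that differ at most genes, such correlations are high for any gene with a clear difference. The nearest genes were Tctn1 for Tap1 (r = 0.999), Rgs3 for Tap2 (0.997), Flt4 for Nlrc5 (1.00), Yrdc for Tapbp (0.998), Thap11 for H2-K1 (0.998), Srsf1 for H2-D1 (0.999), Nupl1 for Irf1 (0.999), and Mturn for B2m (0.972). Within the 8 genes, Tap1 and Tap2 were nearest to Nlrc5 (0.971 and 0.980), and H2-K1 was nearest to Irf1 (0.972). H2-D1 and Tapbp were nearest to each other (0.983).

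Other genes of the pathway were taken from lists of textbook members. Of 70 listed genes 57 had a value, and 17 were called, 4 higher and 13 lower, a share close to the background of 28.6%. With spike-ins 31 were called, 26 higher and 5 lower, where 55.1% of all genes were called. With quantile normalisation 14 were called, 11 higher and 3 lower (3174 of all 15384 genes), so the split depends on the scaling. Of 11 other class I heavy chains measured, 3 were called, all lower, near the share of all genes called. The median log2 fold change was -0.56 with 1 of 11 positive, against 0.40 with 8 positive under spike-ins and 0.39 with 7 positive under quantile normalisation. The medians of all genes were -0.03, 0.95, and 0.05 on these 3 scales, so with spike-ins the list stayed below the median of all genes. H2-Q7, a non-classical heavy chain, had 9.53, 12.9, 15.2, and 7.11 in control libraries and 1.98, 2.52, 2.66, and 2.03 in KD libraries, with no overlap. It fell by 2.02 ± 0.21 (limma, adjusted p = 1.07e-09), H2-Q6 by 2.00 ± 0.24, and H2-T23, whose product Qa-1 engages receptors of natural killer cells, by 1.62 ± 0.24. H2-Q7, H2-Q6, and H2-T23 rest on 16 to 43, 13 to 31, and 10 to 26 reads per KD library. Sequence shared with other genes was not measured for them, so their falls may not be separate. H2-T23 was not called with spike-ins (-0.76) or quantile normalisation (-0.46), nor was H2-Q6 with the latter (-0.95). The 8 others lay between -0.67 and 0.41, with H2-M3, which shares the spaced promoter pair, at 0.41 ± 0.21 (limma, adjusted p = 0.0797). H2-M3 was called higher with spike-ins (1.32), as were 48.1% of all genes, and with quantile normalisation (1.39), as were 1518 of 15384 genes. With the total of the listed genes it was at 0.02, and it rests on 19 to 29 reads per control library.

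Genes that make or load peptides changed in both directions. Psmb9, which shares its upstream region with Tap1, had 3.403, 5.68, 4.13, and 3.83 in control libraries and 0.865, 1.76, 2.202, and 1.62 in KD libraries. It fell by 1.19 ± 0.25 (limma, adjusted p = 0.000103), on 23 to 33 reads per control library, but was at -0.02 with quantile normalisation and was not called with spike-ins. Psmb10, another catalytic subunit of the immunoproteasome, had 13.7, 23.9, 19.6, and 18.3 in control libraries and 58.7, 53.3, 57.3, and 49.3 in KD libraries. It rose by 1.53 ± 0.11 (limma, adjusted p = 1.15e-12). The proteasome activator subunits Psme1 and Psme2 were at 0.83 and 0.99 and not called. Of 5 loading and trimming genes, Tapbpl, a relative of tapasin, fell by 1.16 ± 0.21 (limma, adjusted p = 1.10e-05), and Calr, Canx, Pdia3, and Erap1 were not called (-0.48 to 0.20). Tapbpl was at -0.02 with quantile normalisation and -0.26 with spike-ins and not called. With spike-ins Calr (1.22), Canx (1.02), and Pdia3 (1.10) were called higher, as were 48.1% of all genes.

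The factors that meet NLRC5 or IRF1 on class I promoters were not called in any of 12 measured cases, against 28.6% of all genes. With spike-ins all 12 were positive and 7 were called higher, against 48.1% of all genes on that scale, and with quantile normalisation 1 was called. Their library-size log2 differences lay between -0.58 for Nfya and 0.81 for Irf9, with Rfx5, Rfxap, and Rfxank, the subunits of the RFX complex through which NLRC5 acts, at -0.44, 0.47, and -0.28. Of 9 interferon receptor, kinase, and feedback genes 1 was called, the feedback inhibitor Socs3, which rose by 1.59 ± 0.08 (limma, adjusted p = 6.28e-16). That count of 1 in 9 stands against 28.6% of all genes. With spike-ins 6 of the 9 were called and with quantile normalisation 2, all higher. Of all 15384 genes 48.1% were called higher and 7.03% lower with spike-ins, and 1518 and 1656 with quantile normalisation. Among 10 other interferon response genes 9 were called, 7 lower and 2 higher, where 20.6% of all genes were called lower and 8.07% higher. With spike-ins 2 were called lower and 3 higher, and with quantile normalisation 1 lower and 2 higher. Gbp3, a guanylate-binding protein, fell by 2.63 ± 0.20 (limma, adjusted p = 3.87e-12), and Usp18, Mx2, Irf7, Oasl1, Ifit2, and Gbp2 fell by 1.82, 1.79, 1.50, 1.34, 1.07, and 1.03. Bst2 rose by 1.38 ± 0.12 and Ifi35 by 1.11 ± 0.12, and Oas1a was at 0.95 and not called. With quantile normalisation Gbp3 alone of these was called lower, while Usp18, Mx2, Gbp2, Irf7, Oasl1, and Ifit2 were at -0.91, -0.68, -0.58, -0.40, -0.17, and 0.01, and with spike-ins Gbp3 and Usp18 were the ones called lower.

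In the MHC class II list 1 of 6 measured genes was called, against 28.6% of all genes. With spike-ins and with quantile normalisation 4 of the 6 were called, 3 higher and 1 lower. Of all 15384 genes 55.1% were called with spike-ins and 3174 with quantile normalisation. Ciita, the transactivator of class II genes and a relative of NLRC5, had 8.71, 11.4, 20.6, and 16.4 in control libraries and 1.48, 1.58, 2.33, and 2.55 in KD libraries. It fell by 2.52 ± 0.22 (limma, adjusted p = 5.24e-11), close to the change of Nlrc5. The class II genes H2-Ab1, H2-Eb1, H2-DMa, and H2-DMb1 and the invariant chain Cd74 were not called, at -0.41 to 0.68. Gbp3, H2-Q7, Ciita, Psmb10, and Socs3 were called under all 6 scalings.

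**Figure D4:**
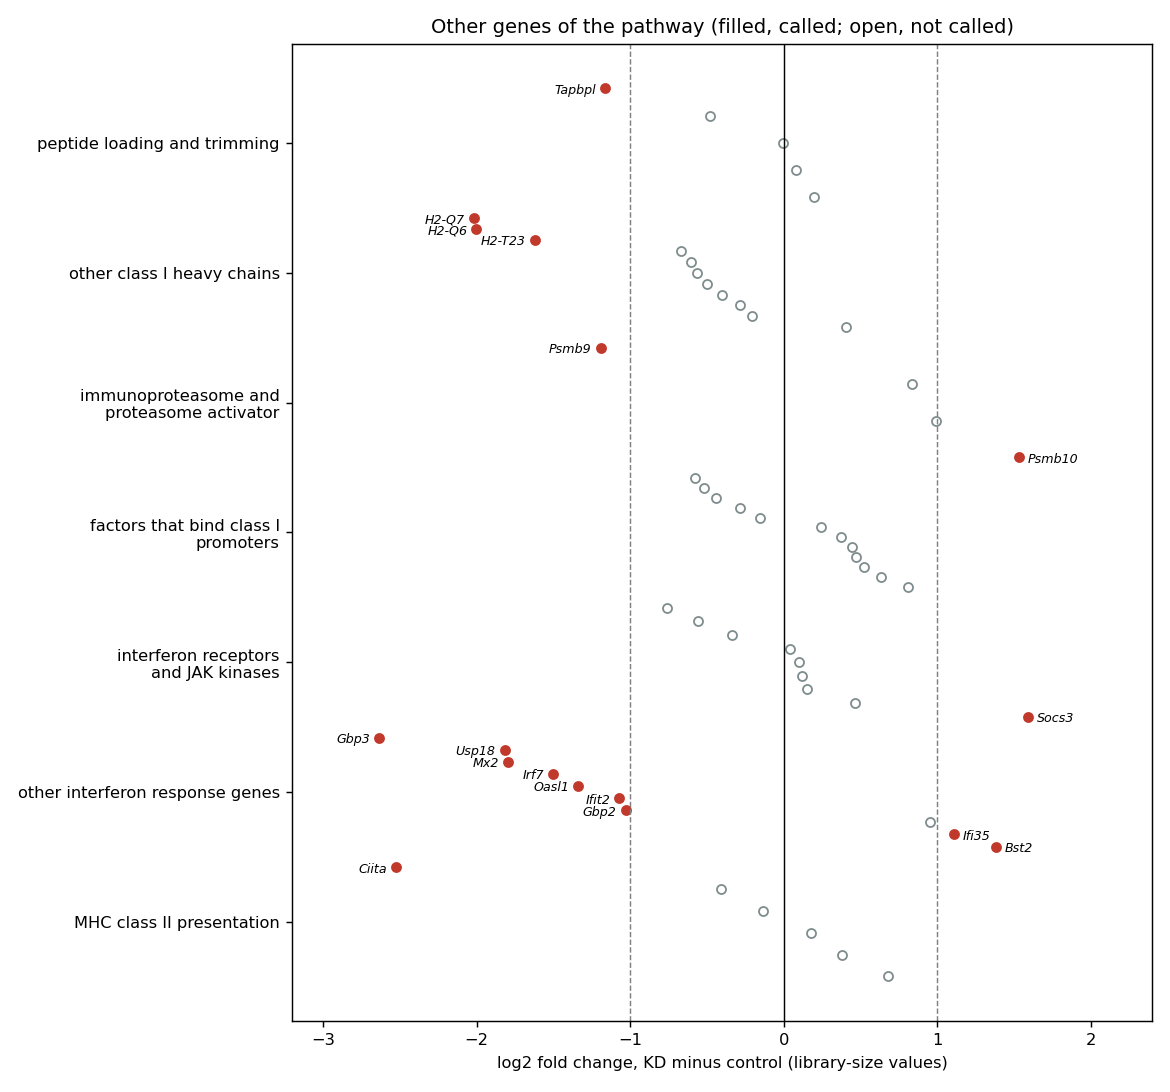
Log2 fold change (KD minus control, library-size values, limma) of the 57 other measured genes by list, with called genes filled and named, and dashed lines at -1 and 1. The called genes of the other class I heavy chains (3) and of class II (Ciita) lie on the left, while Psmb10, Socs3, Ifi35, and Bst2 lie on the right.

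Marker genes of other cell types moved with the groups. The pluripotent cell markers defining mESCs were high in all libraries, with sums of 1472 to 1573 in control and 3947 to 4342 in KD libraries, and 5 of 7 were called, all higher (Dppa5a, Sox2, Pou5f1, Zfp42, and Nanog). With quantile normalisation none of the 7 was called, and their log2 differences stayed positive. Fibroblast markers summed to 50.0 to 63.7 in control and 13.1 to 14.9 in KD libraries, with 4 of 5 measured called lower (Col1a1, Col1a2, Col3a1, and Postn) and Lum and Dcn without a value. Primitive endoderm markers summed to 54.2 to 80.5 and 19.0 to 24.3, with 4 of 5 called lower (Gata4, Gata6, Sox17, and Sox7), and trophectoderm markers to 77.1 to 87.1 and 47.4 to 50.5, with 2 of 4 called lower (Cdx2 and Gata3). Of all genes 8.07% were called higher and 20.6% lower with library-size scaling. With spike-ins 3 fibroblast, 1 primitive endoderm, and 0 trophectoderm markers were called lower, and with quantile normalisation 3, 2, and 0. Of all 15384 genes 7.03% were called lower with spike-ins and 1656 with quantile normalisation. Of the leukocyte markers Ptprc, Lyz2, and Cd3e had no value, Csf1r fell by 2.82, and Laptm5 was at -0.59. Control replicate 3 was the highest library for Nlrc5, Tap2, Csf1r (17.9), and Ciita (20.6), and also for H2-Q7 (15.2) and Ifit2 (9.87). Tap1 had its lowest control value there (62.4), and Laptm5 had 41.4 there and 45.4 in control replicate 4. In bulk RNA, fewer cells of a type and less RNA per cell cannot be told apart, and the part of these markers in the fall of Tap1, Tap2, and Nlrc5 was not tested.

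The peak lists of unperturbed mESCs ask where FACT lies at these genes. A SSRP1 peak within 1000 bp of a transcription start was found at 4 of the 8 genes (Tapbp, B2m, H2-D1, and Irf1) and at 26.1% of all genes. A SUPT16 peak was found at 1 (Irf1) and at 15.6% of all genes. None of the 3 genes that fell had a peak at its start. The lists hold no heights and 1 peak set for both replicates, so the depth behind a peak is unknown and no test was made. At Irf1 both peaks covered the start (SSRP1 chr11:53769857-53770444, SUPT16 chr11:53769941-53770500). At Tapbp a SSRP1 peak of 1274 bp ended just inside the start (chr17:33918291-33919564), and a second one overlapped a coding exon 5869 bp downstream. The SUPT16 peak that the nearest-gene assignment gives to Tapbp lies over the start of the next gene, Rgl2.

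At B2m the SSRP1 peak lay in an intron, 592 bp downstream of the start (chr2:122148279-122148768), and at H2-D1 it overlapped a coding exon, 639 bp downstream (chr17:35263733-35264026), although the list assigns it to Ddx39b. H2-K1 had its nearest SSRP1 peak 8053 bp downstream of the start, beyond the end of the gene. Tap1 and Tap2 had none nearby. Their nearest SSRP1 peak, at Brd2, was 64838 bp and 81761 bp from the starts. Nlrc5 had peaks within its gene body and none within 1000 bp of a start. Its SSRP1 peaks at chr8:94492091-94492580 and chr8:94515219-94515512 began 19328 bp and 42456 bp after the annotated start, and a SUPT16 peak overlapped the first of them. That interval, chr8:94492091-94492300 (plus strand of the same RefSeq assembly, in an intron), is shown because it is the only place where both subunits met at a gene that fell. None of the motifs above was found in it, so no letters are in capitals.
Nlrc5 peak: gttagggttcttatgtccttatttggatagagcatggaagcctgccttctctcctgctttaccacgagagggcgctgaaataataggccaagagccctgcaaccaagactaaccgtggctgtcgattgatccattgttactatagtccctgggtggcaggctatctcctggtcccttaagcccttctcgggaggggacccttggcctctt

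**Figure D5:**
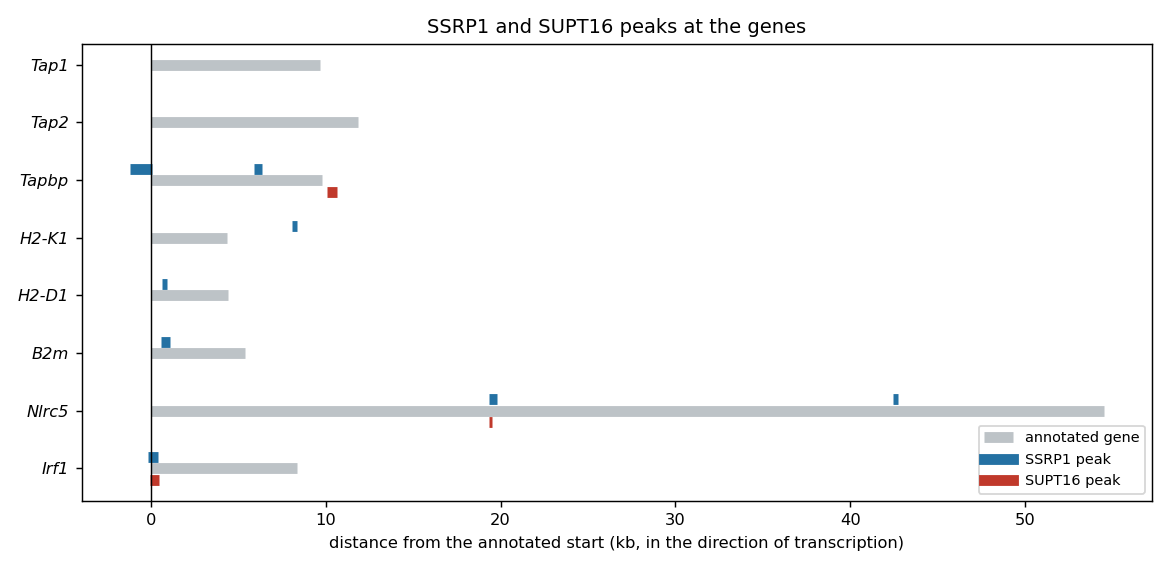
SSRP1 and SUPT16 peaks around the 8 genes, by distance from the annotated start in kb in the direction of transcription (grey bars, the annotated gene). Peaks lie on the start of Irf1 (both subunits) and Tapbp (SSRP1), near that of B2m and H2-D1 (592 and 639 bp), and only in the body of Nlrc5, with none at Tap1 or Tap2.

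Chromatin-bound RNA of unperturbed mESCs was too thinly counted at these genes to rank most of them. The 2 libraries held 3441643 and 3393923 counts, of which 68.6% fell on 10 genes, and the 8 genes received 16 and 48 counts. Irf1 had 3 and 17, H2-K1 7 and 10, and Tapbp 2 and 11. B2m had 0 and 4, H2-D1 3 and 0, Nlrc5 0 and 3, Tap1 1 and 2, and Tap2 0 and 1. A count of 0 allows up to 3 counts, or 0.872 and 0.884 CPM (counts scaled by the total of the library) in the first and second library. Summed over both libraries, Irf1 had 20 (95% exact Poisson interval 12.2 to 30.9) and Tap1 3 (0.619 to 8.77), intervals that cover counting error only. The second library held more counts than the first for 7 genes and fewer for H2-D1, at nearly equal totals. Tap1, the highest of the 8 per kb in whole-cell RNA of control cells, was at 0.149 CPM per kb here, on those 3 counts. No chromatin RNA of KD cells was analysed here.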

How the data were processed

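RNA-seq reads were aligned by the authors to mm10 with STAR and counted per gene with featureCounts. The deposited signal per library is a gene's read count divided by a factor, once for library size and once for ERCC spike-ins, with genes above 1 CPM kept. The strand setting of the counting is not given in these sources. The chromatin RNA table was deposited as raw counts per gene. The authors used PePr to call peaks on both replicates together and ChIP-Enrich to assign them, and deposited positions without heights. Their tables of KD against control, of NPCs (neural progenitors) against mESCs, and of exon usage hold fold changes and p-values of their own comparisons and no value per library. These were not used, so the 8 genes are not described in NPCs. Nor were NET-seq, MNase-seq, ATAC-seq, or the RNA-seq set without spike-ins analysed here.

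Genes were matched by GeneID, and names, positions, and exon lengths came from the count table. Log2(value + 0.5) of the library-size scaling was fitted by limma 3.58.1 with a trend over 15384 genes, 4 KD against 4 control libraries, and calls needed a Benjamini-Hochberg adjusted p below 0.01 with a log2 fold change beyond 1 in size. A fold change on this scale understates that of low genes. The smallest step in each library gave back whole reads for 100% of values (tolerance 0.1). Replicates differed by more than sampling noise, with a chi-square of 1.88 to 6.63 per degree of freedom. Alternatives were edgeR 4.0.16 and DESeq2 1.42.0 on those reads, pseudocounts of 0.1 and 2, a mean value of at least 5, 5 other scalings, a loess correction for exon length, leaving out single libraries, and a term for the replicate number. The scripts were tested on simulated data. Single genes were also compared by a two-sided exact permutation test. Every one of the 8 genes, every called gene of the pathway lists, the most similar gene of each, and Ssrp1 and Supt16 were named by rule. Some genes of these lists are not reported here. The members and lists were chosen with earlier results of these data known. A start was any RefSeq transcript start of GRCm38.p6. R 4.3.3 and Python 3.11.15 were used.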

Additional observations from a re-analysis of the deposited data

Results flagged for a closer look

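Tapbp in control replicate 1 stood apart from the other control libraries, at a library-size value of 15.4 against 12.3 to 12.7. Its gap to the next library was 0.861 of the range of the group, above Dixon's 95% critical value for a group of 4 samples. Of the 16 groups of 4 libraries tested (8 genes in control and in KD) this was the only one, and chance flags about 1 in 20. Without that library the log2 fold change of Tapbp was 0.92.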

How the results depend on the processing

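Of the 8 genes 5 were called, and 8 with spike-in scaling and 3 with scaling to the total of the listed genes (chosen after seeing the data). Over all 15384 genes the 4405 calls became 8476 with spike-ins, 5044 with the total of the listed genes, and 11192 by adjusted p alone. The 17 calls among 57 pathway genes became 11 with a pseudocount of 2, 8 with a mean value of at least 5, 31 with spike-ins, and 38 by adjusted p alone. Of all genes, 3472 of 15384 were called with that pseudocount and 3225 of 13062 with that mean value. The latter filter leaves low pathway genes such as Usp18 untested, so its count of 8 has a smaller base. The 4 genes with a peak at a start became 2 with peaks of at least 500 bp. The B2m difference reversed to -0.26 with the total of the listed genes and to -0.16 with the correction for exon length. Without each library in turn 4 to 6 of the 8 genes, 4254 to 4635 of all genes, and 16 to 19 pathway genes were called. The median control level of the 8 genes per kb then lay between 9.66 and 10.1, and the summed chromatin RNA of single libraries was 4.65 and 14.1 CPM.

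Tap1 and Nlrc5 were called under all 20 alternatives, and Tap2 under the 19 that kept it (its mean was under 5). The call of H2-K1 was lost under 4, and that of H2-D1 under 1. Irf1, Tapbp, and B2m, which were not among the 5 called genes, were called under 8, 3, and 1 of the 20. Causes were not tested. Same-numbered libraries did not deviate together (correlations -0.06 to 0.02). No label says whether they were prepared in pairs, and low correlations cannot settle it. With the replicate block 5 of the 8 genes, 4405 of all genes, and 17 pathway genes were called, as without it. Depth limits Tap2 (9 to 20 reads per KD library) and the chromatin counts.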
